A study of Homo sapiens with 4 samples.

Results

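Interferon-stimulated genes are the genes that a cell switches on when interferon tells it of a virus. The set described here held 40 such genes, chosen by symbol from a list of interferon-induced effectors, sensors and transcription factors, and all 40 were found among the 34675 genes of the authors' deposited table. RNA was sequenced from MDA-MB-231, an established cell line from the pleural effusion of a patient with triple-negative breast cancer, here grown on plastic in medium with serum. The vector group was a stable line with the empty pcDNA plasmid, and the LKB1 group a stable line with pcDNA carrying FLAG-tagged wildtype LKB1, the kinase encoded by STK11. Each group had 2 libraries, 4 in all, and the labels name no interferon treatment or infection of either group.

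The data were 1 comparison by the authors over the 4 libraries, with a fold and the result of its test for each gene and no value per library. Read totals per line, each a sum over 2 libraries, were recovered from the fold column for all 40 genes. Depth differed little, with 1.04 times as many reads behind the LKB1 totals as behind the vector totals. The direction is not named in the table and was taken to be LKB1 over vector because of STK11, which had 1321 reads in vector cells and 2112 in LKB1 cells (log2 fold 0.62 in the authors' deposited table, adjusted p = 0.00105). Every direction given rests on that choice, and the rise of STK11 is therefore no check of the labels. The labels do not say whether duplicates were separate cultures or whether a line was 1 clone, so the p-values measure a spread that may be only technical, and the spread between cultures or clones is unknown. In the titles 3 libraries share a tag and 1 LKB1 library has another, and only LKB1 titles carry the term fmRNA, which the labels do not explain; a difference in preparation that this term may stand for cannot be told apart from LKB1. In a check for mix-ups, 1 of the 2 groups failed to match the named line, and this bears on every difference below. All 12 markers of MDA-MB-231 that were examined had at least 40 reads, among them VIM and EGFR, and 4 differed between the lines (CAV1, CAV2 and AXL higher, MSN lower in LKB1 cells). Of 9 luminal or epithelial markers expected to be low in MDA-MB-231, 6 also reached 40 reads. CLDN4 had 1284 reads in vector cells and 2149 in LKB1 cells and was called higher, ERBB2 had 1104 and 1364, CDH1 431 and 278, GATA3 259 and 290 and EPCAM 152 and 209, whereas ESR1 had 8 and 12, PGR 4 and 0 and FOXA1 1 and 0.

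Type I interferons bind the receptor chains IFNAR1 and IFNAR2, and the kinases JAK1 and TYK2 then phosphorylate STAT proteins. Of these STAT2 joins IRF9 in the factor ISGF3, which binds the interferon-stimulated response element (ISRE) in the promoters of its target genes. Interferon gamma acts instead through the gamma-activated site (GAS). The products of the target genes degrade viral RNA, block its translation, stop viruses at membranes, and include the sensors and factors of the pathway itself, which makes the response feed on itself.

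Promoter windows from RefSeq (build GRCh38.p14, 250 bases before to 50 after a gene's start) were matched by symbol for 30 of the 40 genes. The letters GAAA, then any 2 bases, then GAAA, a core of the ISRE, stood on either strand of at least 1 window for 20 of these 30 genes (66.7%), against 4.38% of all 27305 genes with a window. TTCNNNGAA, the core of the GAS, was found for 8 of the 30 (26.7%), against 9.38% of all genes. The matches of the 2 motifs overlapped each other in 3 genes. A match is a run of letters, not a shown binding site. The last 170 bases before the start are printed for ISG15 and IFIT1 as examples of paired matches, for OAS1, IFI44L and IRF9, which were lower in the LKB1 line, and for OAS3 and IFI44, neighbours of OAS1 and IFI44L that did not pass the test. All lie on the plus strand and read 5′ to 3′, with matches of either motif in capitals.
ISG15, chr1:1013327-1013496: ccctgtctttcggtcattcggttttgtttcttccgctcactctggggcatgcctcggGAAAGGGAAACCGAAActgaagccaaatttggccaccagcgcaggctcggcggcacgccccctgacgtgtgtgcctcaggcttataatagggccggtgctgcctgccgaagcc
IFIT1, chr10:89392453-89392622: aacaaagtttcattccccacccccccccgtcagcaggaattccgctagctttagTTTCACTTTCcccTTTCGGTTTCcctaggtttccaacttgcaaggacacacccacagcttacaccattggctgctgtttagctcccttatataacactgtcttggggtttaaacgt
OAS1, chr12:112906792-112906961: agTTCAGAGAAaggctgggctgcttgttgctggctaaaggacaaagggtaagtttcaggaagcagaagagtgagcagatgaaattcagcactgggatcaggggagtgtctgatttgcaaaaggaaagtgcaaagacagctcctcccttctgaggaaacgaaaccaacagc
OAS3, chr12:112938304-112938473: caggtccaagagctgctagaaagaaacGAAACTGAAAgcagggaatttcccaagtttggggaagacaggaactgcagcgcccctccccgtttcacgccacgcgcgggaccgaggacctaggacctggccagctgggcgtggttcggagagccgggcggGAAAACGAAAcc
IFI44L, chr1:78620278-78620447: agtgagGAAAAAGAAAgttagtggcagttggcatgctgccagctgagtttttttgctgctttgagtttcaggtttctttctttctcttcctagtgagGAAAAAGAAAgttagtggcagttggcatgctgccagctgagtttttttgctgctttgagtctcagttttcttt
IFI44, chr1:78649619-78649788: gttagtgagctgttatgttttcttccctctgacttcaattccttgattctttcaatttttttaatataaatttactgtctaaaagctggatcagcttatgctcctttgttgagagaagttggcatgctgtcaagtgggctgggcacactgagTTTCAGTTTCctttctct
IRF9, chr14:24161095-24161264: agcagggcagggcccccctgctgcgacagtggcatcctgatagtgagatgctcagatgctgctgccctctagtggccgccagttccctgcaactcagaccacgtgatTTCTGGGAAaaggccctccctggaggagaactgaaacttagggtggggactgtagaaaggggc

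The capitals mark 2 ISRE core matches in ISG15, where they overlap, and 2 each in IFIT1, OAS3 and IFI44L. In IFI44 they mark 1. In OAS1 and IRF9 the stretch held a GAS core match and no ISRE core match. Near its end the OAS1 stretch holds gaaacgaaa, GAAA repeated with 1 base between, which the pattern with 2 bases between does not count. A missing match therefore does not show that a site is missing. The matches of IFI44L lie in 2 copies of a stretch of 66 bases, 91 bases apart. Of the 3 genes that were lower and had a window, 1 held an ISRE core match. The 20 genes with an ISRE match had log2 folds of -2.91 to 0.50 with a median of 0.16, and the 10 without had log2 folds of -2.79 to 0.39 with a median of -0.14.

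A few interferon-stimulated genes were lower in the LKB1 line, and the others did not pass the test. At an adjusted p under 0.05 in the authors' deposited table, OAS1, IFI44L, TRIM22, IRF7 and IRF9 fell and none rose, 5 of 40. In the table as a whole, 3.24% of genes were lower, 2.55% higher and 5.79% either. The table also lists genes with few or no reads, so the closer comparison is with the 14392 genes of at least 40 reads over the 4 libraries, of which 6.86% were lower and 5.77% higher, 12.6% in all. Among the 39 interferon-stimulated genes with that many reads, 5 were called (12.8%), a share near this background. At an adjusted p under 0.01 there were 4, all but IRF9, and 3.95% of all genes passed; with a fold of at least 2 also required there were 3, and 2.98% of all genes passed. At an unadjusted p under 0.05 there were 7 lower and 5 higher, and the shares over all genes with 40 reads were 13.8% and 12.1%. The gene left out by the minimum was CMPK2, with 4 reads in vector cells and 3 in LKB1 cells.

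The size of the folds was also near that of all genes. The median log2 fold was 0.05 over the 39 genes, with 18 below 0 and 21 above, and -0.02 over all genes of that depth. Of the 39, 32 lay within 0.5 of 0 on the log2 scale (82.1%), against 77.8% of all genes. With at least 200 reads, where counting error is smaller, 28 of 30 did (93.3%), against 84.6%. Of these 30 genes IRF7 and IRF9 were called, 2 lower and 0 higher (6.67%), and of all such genes 5.82% were lower and 6.2% higher, 12% in all. Of the 9 genes with 40 to 199 reads 3 were lower, namely OAS1, IFI44L and TRIM22, and over all genes with as few reads 10.6% were lower and 4.22% higher, 14.8% in all. When p-values were adjusted over genes with at least 40 reads alone, 9 of the 39 passed, 7 lower and 2 higher, and 15.4% of all genes did. The genes added were DDX58 and ISG15, lower, and DHX58 and IFI27, higher.

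**Figure D1:**
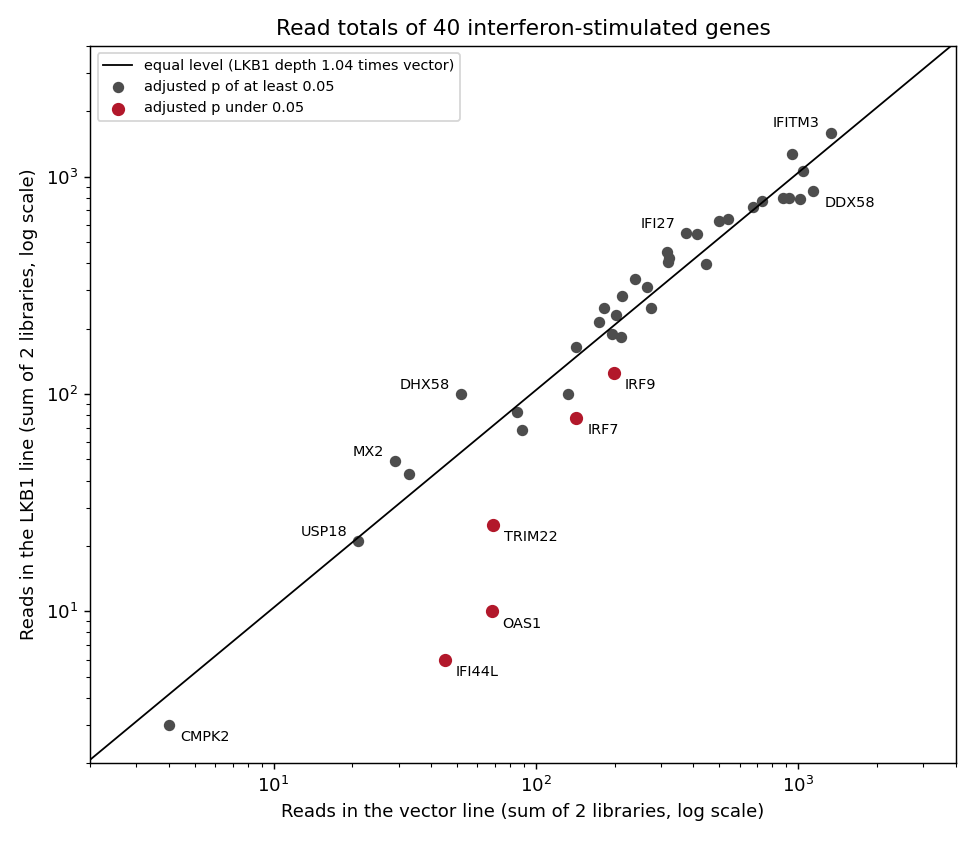
Read totals of the 40 interferon-stimulated genes in the vector line (x axis) and the LKB1 line (y axis), each a sum of 2 libraries, on log scales. Points on the line have equal levels at the depth of each line; the 5 called genes (red) lie below it, with 324 reads or fewer over both lines, and genes with more reads lie close to it.

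**Figure D2:**
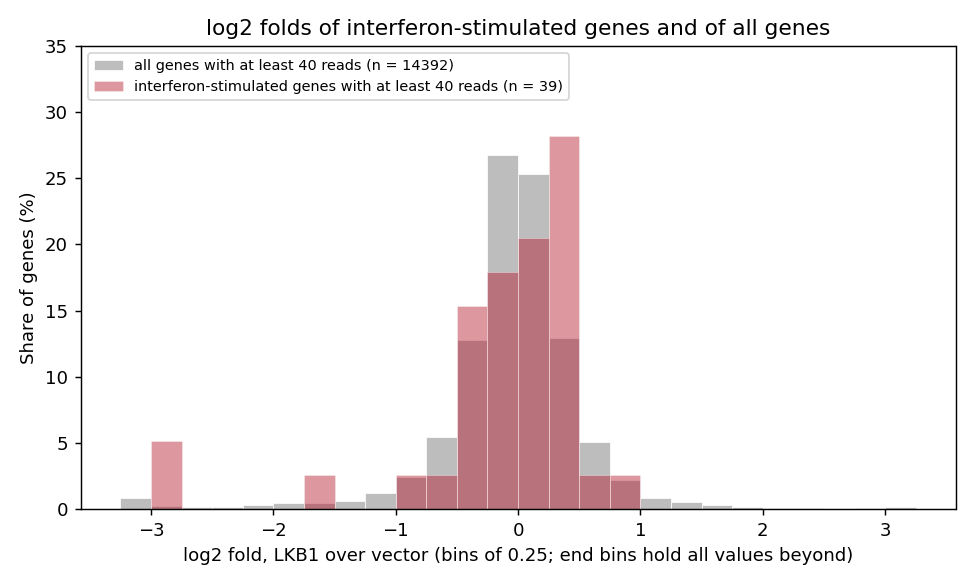
Share of genes (y axis, %) by log2 fold, LKB1 over vector (x axis, bins of 0.25), for 39 interferon-stimulated genes (red) and all 14392 genes (grey) with at least 40 reads. The medians are 0.05 and -0.02, the interferon-stimulated genes are most frequent between 0.25 and 0.5, and 3 of them lie below -1; the end bins hold all values beyond.

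Markers of other cell types moved between the lines as well. Of 9 endothelial markers 7 fell and none rose; the 8 in the table summed to 2072 reads in vector cells and 291 in LKB1 cells, EMCN had 1 read in each, and PECAM1 was not analysed here. Leukocyte markers summed to 2378 and 1763 reads over 7 genes, of which LCP1 fell and CD14 rose, and the common leukocyte antigen PTPRC had 10 and 2 reads. Fibroblast markers summed to 456 and 423 reads over 7 genes with DCN at 0 in both. COL3A1 and COL1A1 fell, whereas COL1A2 had more reads in LKB1 cells, 97 and 160, short of the threshold (adjusted p = 0.0656 in the authors' deposited table). PDGFRB had 172 and 163. Of the markers of plasmacytoid dendritic cells, the main makers of type I interferon in blood, CLEC4C and LILRA4 each had 0 reads in vector cells and 2 in LKB1 cells. SPIB had 3 and 0, TCF4 fell from 121 to 7 reads, and IL3RA and GZMB were not analysed here. TCF4 was the only marker on this list with at least 40 reads. The part of any of these in the lower values of the 5 called genes was not tested.

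Of the 4 transcription factors in the set, 2 were lower in the LKB1 line, where 6.86% of all genes with at least 40 reads were; of 7 other genes for interferon regulatory factors and their binding proteins, none passed. IRF7 (ENSG00000185507.14, chromosome 11, 612553 to 615999, minus strand, hg19), which drives interferon alpha genes and is itself interferon-induced, had 143 reads in vector cells and 78 in LKB1 cells. The drop was 1.9-fold (log2 -0.93 and adjusted p = 0.00832 in the authors' deposited table, approximate SE 0.26). IRF9 (ENSG00000213928.4, chromosome 14, 24630262 to 24635774, plus strand, hg19), the DNA-binding subunit of ISGF3, had 199 and 125 reads, a drop of 1.65-fold (log2 -0.73 and adjusted p = 0.0447 in the authors' deposited table, approximate SE 0.24). Its annotated span lies within that of the gene ENSG00000259529.1 on the same strand, which had 532 and 386 reads (log2 -0.52, adjusted p = 0.0724 in that table), so reads may be split between them and the value of IRF9 is uncertain. Both calls were lost in a test that gave all genes a between-library coefficient of variation of 0.2 (adjusted p = 0.231 for IRF7 and 0.521 for IRF9), by which 2.52% of genes were called.

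The other two factors did not pass. STAT2, the partner of IRF9 in ISGF3, had 544 reads in vector cells and 637 in LKB1 cells (log2 0.17 in the authors' deposited table, approximate 95% interval -0.15 to 0.49). IRF1, an interferon gamma target that activates promoters on its own, had 876 and 800 reads (log2 -0.19, interval -0.52 to 0.15). The difference from STAT2 in log2 fold was -1.10 for IRF7 (interval -1.70 to -0.50) and -0.90 for IRF9 (interval -1.47 to -0.33), comparisons chosen after the values were seen.

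The 3 cytosolic RNA sensors had folds on both sides of 0 and none passed, where 12.6% of all genes with at least 40 reads did. DDX58, which encodes RIG-I, the sensor of RNA with a 5′ triphosphate, had 1148 reads in vector cells and 862 in LKB1 cells (log2 -0.47, adjusted p = 0.0578 in the authors' deposited table). IFIH1, which encodes MDA5, the sensor of long double-stranded RNA, had 239 and 339 (log2 0.45, adjusted p = 0.263). DHX58, which encodes LGP2, a relative without signalling domains that modulates them, had 52 and 100 (log2 0.88, adjusted p = 0.0652), the highest fold of the 40 genes. RIG-I thus had fewer reads in the LKB1 line and the other two sensors more, each short of the threshold over the whole table.

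In the ISG15 system, which attaches a ubiquitin-like protein to other proteins, 0 of 4 genes passed by the authors' test. Among all genes with at least 40 reads 12.6% did. At an unadjusted p under 0.05, where 13.8% of such genes were lower and 12.1% higher, there was 1 of the 4. That was ISG15, the modifier itself, with 1018 reads in vector cells and 786 in LKB1 cells (log2 -0.43 and adjusted p = 0.0937 in the authors' deposited table, approximate interval -0.74 to -0.12). HERC5, the main ligase for ISG15 in human cells, had 499 and 625 reads (log2 0.27, interval -0.07 to 0.61), and its neighbour HERC6 174 and 214 (log2 0.24). USP18, the protease that removes ISG15 and also restrains the receptor, had 21 reads in each line (depth-adjusted ratio 0.962, counting interval 0.5 to 1.85). The modifier and its ligase therefore lay on opposite sides of 0, neither past the threshold over all genes.

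OAS1 was the only called gene among 13 effectors that act on RNA and nucleotides. That is 8.33% of the 12 with at least 40 reads, and of all such genes 6.86% were lower and 12.6% called. OAS1 (ENSG00000089127.8, chromosome 12, 113344582 to 113369990, plus strand, hg19), a synthetase of 2′-5′ oligoadenylate that switches on RNase L, had 68 reads in vector cells and 10 in LKB1 cells. The drop was 6.92-fold (log2 -2.79 and adjusted p = 2.1e-08 in the authors' deposited table, approximate SE 0.49). It was the single gene of the 40 still called at a coefficient of variation of 0.4 (adjusted p = 0.0347), at which 0.798% of genes passed. The spans of OAS1, OAS2 and OAS3 overlap that of an antisense gene, RP1-71H24.1, with 1 read in vector cells and 7 in LKB1 cells. The value of OAS1 is therefore uncertain if strand was not used.

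Its relatives did not follow it past the threshold. OAS3, in the same cluster, had 674 reads in vector cells and 726 in LKB1 cells (log2 0.05 in the authors' deposited table, approximate interval -0.27 to 0.37). OAS2, also there, had 212 and 184 (log2 -0.26, interval -0.69 to 0.17). OASL, a member without synthetase activity encoded elsewhere on the chromosome, had 213 and 283 (log2 0.35, interval -0.04 to 0.74).

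The 4 IFIT genes, some of whose products bind RNA with foreign 5′ ends, had log2 folds of 0.03 to 0.36 and none passed. Among all genes with at least 40 reads 12.6% did. IFIT3 had 952 reads in vector cells and 1267 in LKB1 cells (log2 0.36 and adjusted p = 0.264 in the authors' deposited table, approximate interval 0.04 to 0.67). IFIT1 had 412 and 545 (log2 0.35), IFIT5 321 and 405 (log2 0.28) and IFIT2 728 and 773 (log2 0.03, interval -0.26 to 0.32). IFIT1, IFIT2 and IFIT3 lie inside the span of LIPA on the other strand, and IFIT5 overlaps that span only at its first bases. LIPA had 882 and 1179 reads (log2 0.36), and how strand entered the counting is not given in the sources used here.

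The remaining effectors of this class had few to moderate reads. MX1, a GTPase that traps viral nucleocapsids, had 267 reads in vector cells and 311 in LKB1 cells (log2 0.16 in the authors' deposited table, approximate interval -0.18 to 0.51), and its relative MX2 29 and 49 (log2 0.70, interval -0.07 to 1.47). The exonuclease gene ISG20 had 89 and 68 (log2 -0.44) and RSAD2, which encodes viperin, 33 and 43 (log2 0.32). CMPK2, a mitochondrial nucleotide kinase that overlaps RSAD2, had 4 and 3 reads (depth-adjusted ratio 0.721, counting interval 0.106 to 4.26). At such totals a difference of the size seen for TRIM22 was not detectable in CMPK2.

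Of 6 genes for membrane and mitochondrial proteins none passed, where 12.6% of all genes with at least 40 reads did. IFITM3, which blocks virus entry from endosomes, had the most reads of all 40 genes, 1336 in vector cells and 1594 in LKB1 cells (log2 0.20 in the authors' deposited table, approximate interval -0.12 to 0.51). IFITM2 had 925 and 802 (log2 -0.26) and IFITM1 275 and 249 (log2 -0.20). The span of IFITM2 in the table contains that of IFITM1, and the 3 are close copies, so the split of reads among them is uncertain. IFI27, a mitochondrial protein often used as a marker of interferon exposure, had 375 and 551 (log2 0.50, interval 0.14 to 0.86, adjusted p = 0.0942), and IFI6, of the same family, 133 and 100 (log2 -0.47, interval -0.94 to 0.01). XAF1, a pro-apoptotic antagonist of XIAP, had 85 and 83 (log2 -0.09).

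Of the other 10 effectors, IFI44L and TRIM22 were lower, which is 20%. Among all genes with at least 40 reads 6.86% were lower. With 40 to 199 reads, the range of both genes, 10.6% were. IFI44L (ENSG00000137959.10, chromosome 1, 79085607 to 79108484, plus strand, hg19) had 45 reads in vector cells and 6 in LKB1 cells. The drop was 7.52-fold, the steepest of the 40 genes (log2 -2.91 and adjusted p = 9.66e-06 in the authors' deposited table, approximate SE 0.63). Its neighbour and paralog IFI44 had 196 and 188 reads (log2 -0.12, interval -0.50 to 0.26). TRIM22 (ENSG00000132274.11, chromosome 11, 5710919 to 5758319, plus strand, hg19), a restriction factor of the tripartite motif family, had 69 and 25 reads and was 2.85-fold lower (log2 -1.51 and adjusted p = 0.00106 in that table, approximate SE 0.36). It lies inside the span of TRIM5 on the other strand, a restriction factor of retroviruses that also fell, from 279 to 148 reads (log2 -0.97, adjusted p = 0.000183), so the value of TRIM22 is uncertain if strand was not used. TRIM22 and IFI44L were still called with a coefficient of variation of 0.2 assumed (adjusted p = 0.0288 and 0.000158) and not with 0.4 (1 and 0.0597).

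The remaining 8 of these effectors did not pass. PARP14 and PARP9, which attach ADP-ribose, had log2 folds of -0.03 (1052 and 1068 reads) and 0.15 (142 and 164) in the authors' deposited table. SAMD9 and SAMD9L, growth-restraining antiviral factors, were both above 0, at log2 folds of 0.34 (323 and 424 reads) and 0.39 (182 and 248). The guanylate-binding protein genes, targets of interferon gamma, split into GBP2 at 0.45 (316 and 449 reads, adjusted p = 0.161) and GBP1 at -0.23 (446 and 395). IFI35, a leucine zipper protein, had 202 and 232 reads (log2 0.14).

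**Figure D3:**
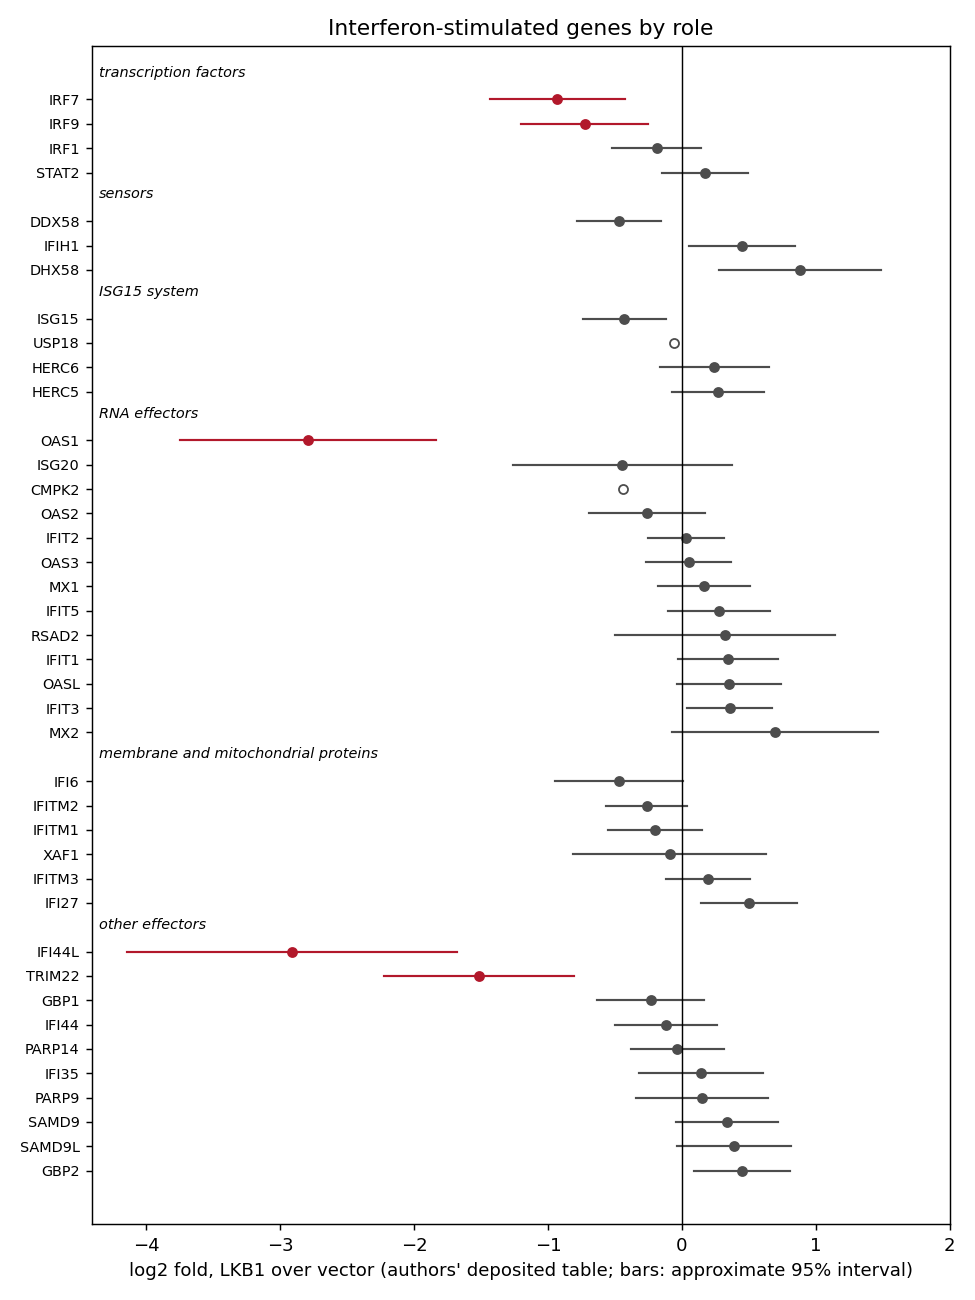
log2 fold, LKB1 over vector, of the 40 genes in 6 role groups, from the authors' deposited table, with approximate 95% intervals as bars; red marks an adjusted p under 0.05, and open circles are genes with a deposited p of 1, for which no interval was computed. The 5 red genes lie left of 0, 2 of them among the 4 transcription factors, and 32 of the 39 genes with at least 40 reads lie within 0.5 of 0.

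Many of the genes stand beside a relative, and in 2 of these clusters 1 member was lower without the others. With gaps of at most 200 kb, 24 of the 40 genes fell into 10 clusters of 2 to 4 genes. Of these 24 genes 2 were called, and of all genes with at least 40 reads 12.6% were called and 6.86% were lower. In 8 clusters no member passed, and the log2 folds within a cluster spanned 0.03 to 0.76. The log2 fold of OAS1 minus that of OAS3 was -2.84 (interval -3.85 to -1.83), and minus that of OAS2 it was -2.53 (interval -3.58 to -1.48). For IFI44L minus IFI44 it was -2.79 (interval -4.08 to -1.51). These pairs were chosen after the values were seen, and their intervals carry no test. The 24 nearest protein-coding genes with at least 200 reads lay at a median log2 fold of -0.08 around OAS1, 0.04 around IFI44L, -0.15 around TRIM22, 0.02 around IRF7 and -0.18 around IRF9, with 0, 1, 3, 0 and 1 of them lower. Around all 40 genes these medians ran from -0.28 to 0.26.

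**Figure D4:**
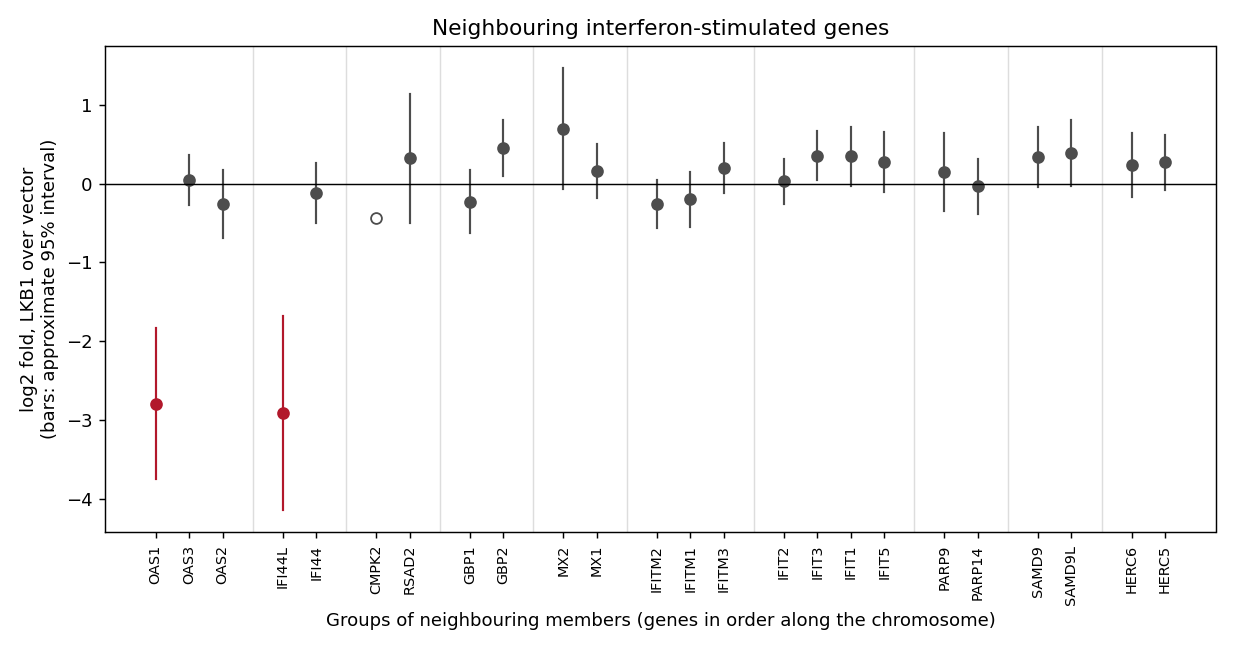
log2 fold, LKB1 over vector (y axis), of 24 genes in 10 clusters of neighbours along the chromosome (x axis), with approximate 95% intervals; clusters are ordered by the spread of their folds, red marks an adjusted p under 0.05 and the open circle a gene with a deposited p of 1 and no interval. OAS1 and IFI44L stand apart from their neighbours, whereas the 4 IFIT genes and the pairs SAMD9 and SAMD9L, HERC5 and HERC6 lie close together.

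The rest of the pathway was read from lists of ligands, receptors, factors, adaptors, negative regulators and further targets. Of 124 genes in the table, each counted once, 12 passed, 5 lower and 7 higher, and the median log2 fold was 0.002 over the 108 that reached 40 reads. Of those 108, 11.1% were called, against the 12.6% of all genes with as many reads. Transcripts of interferons themselves were at the limit of detection. Of 3 interferon genes in the table IFNB1 and IFNE had 0 reads in both lines and IL29 had 1 in vector cells and 0 in LKB1 cells, where 0 reads allow up to 3, and the other 18 on the list were not analysed here.

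None of the 9 receptor chains and kinases passed by the authors' test, where 12.6% of all genes with at least 40 reads did. At an unadjusted p under 0.05, where 13.8% of such genes were lower and 12.1% higher, there were 2 of the 9. These were TYK2, with 1859 reads in vector cells and 1506 in LKB1 cells (log2 -0.36, adjusted p = 0.191 in the authors' deposited table), and the interferon gamma receptor chain IFNGR2, with 737 and 999 (log2 0.38, adjusted p = 0.189). JAK1 had 1926 and 2136 reads (log2 0.09), and IFNAR1 827 and 890 (log2 0.05).

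None of 7 other interferon regulatory factors and their binding proteins passed by the authors' test, and IRF3 and IRF5 had an unadjusted p under 0.05. IRF3, the factor that sensors activate first, had 590 reads in vector cells and 441 in LKB1 cells (log2 -0.48, adjusted p = 0.105 in the authors' deposited table), and IRF5 8 and 25 (adjusted p = 0.26). IRF2BP2 and IRF2BPL, which bind or resemble binders of IRF2, had 1810 and 2256 reads (log2 0.26) and 913 and 884 (log2 -0.10). Of 24 sensing and adaptor genes none passed by the authors' test and 1, AZI2, had an unadjusted p under 0.05. Beside both lists, 12.6% of all genes with at least 40 reads were called. At that unadjusted p 13.8% of them were lower and 12.1% higher. ADAR, an RNA editing enzyme, had a log2 fold of 0.19 and no recovered total. TRIM25, the ligase that activates RIG-I, had 2370 and 2336 reads (log2 -0.08), MAVS 1268 and 1427 (log2 0.11) and the kinase gene EIF2AK2 1233 and 1261 (log2 -0.02).

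Of 17 negative regulators 2 were lower and none higher, which is 12.5% of the 16 with at least 40 reads, near the 12.6% called among all such genes. SOCS2, a suppressor of cytokine signalling best known from the growth hormone receptor, had 171 reads in vector cells and 72 in LKB1 cells (2.46-fold lower, log2 -1.30, adjusted p = 0.000414 in the authors' deposited table). SOCS3, the brake on STAT3 signalling by IL6-type cytokines, had 373 and 257 (log2 -0.59, adjusted p = 0.0457). SOCS1, the suppressor most tied to interferon receptors, had 119 and 82 (log2 -0.59, adjusted p = 0.452).

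The 47 further interferon targets split, with 5 higher and 2 lower. These were 17.1% of the 41 with at least 40 reads, and of all such genes 12.6% were called, 5.77% higher and 6.86% lower. The higher ones were the cytidine deaminase genes APOBEC3G (44 to 113 reads, log2 1.30, adjusted p = 0.00138 in the authors' deposited table) and APOBEC3F (25 to 66, log2 1.34, adjusted p = 0.0237), neighbours and close copies whose reads may be shared. LY6E, a membrane-anchored protein of virus entry, rose from 1412 to 2193 reads (log2 0.58, adjusted p = 0.00458). The helicase gene DDX60 rose from 258 to 406 (log2 0.60, adjusted p = 0.0227) and IFITM10 from 179 to 299 (log2 0.68, adjusted p = 0.0312). IFITM10 carries the family name and was placed on the list by it. Besides TRIM5, the mono-ADP-ribosyltransferase gene PARP10 fell, from 474 to 291 reads (log2 -0.76, adjusted p = 0.00121).

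Among 19 targets of interferon gamma, B2M and TAP1 rose and CD274 fell, 18.8% of the 16 with at least 40 reads, against 12.6% of all such genes. B2M, the light chain of MHC class I, was 1.48-fold higher (log2 0.57, adjusted p = 0.00267 in the authors' deposited table), with a read total that was not recovered. The peptide transporter gene TAP1 rose from 1685 to 2432 reads (log2 0.47, adjusted p = 0.0245), and CD274, which encodes the checkpoint ligand PD-L1, fell from 467 to 323 (log2 -0.59, adjusted p = 0.0392). The MHC class II gene HLA-DRA had 1920 and 1470 reads (log2 -0.44, adjusted p = 0.0729). Called genes of the pathway thus lay on both sides of 0, and with a coefficient of variation of 0.2 assumed 2 of the 115 genes with recovered totals passed, namely SOCS2 and APOBEC3G, and B2M was not tested.

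**Figure D5:**
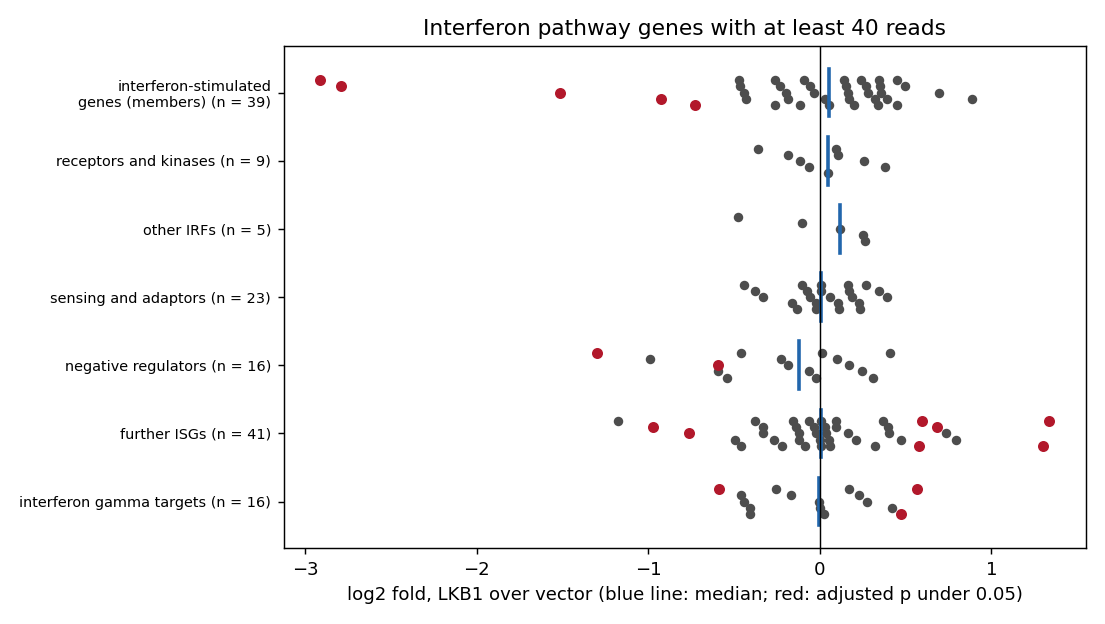
log2 fold, LKB1 over vector (x axis), of genes with at least 40 reads in the interferon-stimulated set and 6 further lists of the pathway (rows); each point is a gene, red marks an adjusted p under 0.05 in the authors' deposited table and the blue line is the median of a list. The medians lie from -0.12 to 0.12, and the lowest folds belong to IFI44L and OAS1.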

How the data were processed

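RNA was measured in 4 libraries, 2 per stable line. Build hg19, edgeR 2.6.0, TopHat2 2.0.6 and CASAVA 1.8.2 are listed in the submitters' processing notes, with no role for each. The labels' protocols cite a stranded library method, but which counter, gene models and filters were applied, and whether with strand, is not given in the sources used here. The authors deposited for each gene a fold (a ratio), the log2 of that fold, and a p-value before and after adjustment, per the file headers. The adjusted p-values matched a Benjamini-Hochberg adjustment over all 34675 genes within 1.9e-06. No refit was made without values per library, so calls (adjusted p under 0.05) are those of the authors' deposited table.

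The deposited folds follow from whole read totals per line with prior counts of 0.254868 (LKB1) and 0.245132 (vector), computed with Python 3.11.15 and scipy 1.17.1. Totals up to 3000 reads per line were found for 27261 of 28242 genes with reads (96.5%), to a relative tolerance of 6e-10 on a whole total; the method was tested on simulated data. Genes without a recovered total were counted as having at least 200 reads. An SE of a log2 fold was approximated from the deposited p (fold divided by the normal deviate), or from counting error where that was larger (2 of the 40 genes), and the intervals are 95%; genes with a deposited p of 1 got none. Counting intervals are exact (Clopper-Pearson), and like every read total cover counting error only. In the alternative with an assumed coefficient of variation (0.2 or 0.4), totals were compared by a conditional negative binomial test, adjusted over genes with recovered totals.

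Genes named are every called gene of the set and of the pathway lists, every member with at least 200 reads, and otherwise up to 3 per list with the most recovered reads. Other members and genes, and the cell type markers that are named, were added after their values were seen. The members and lists were chosen with earlier results of these data known. Comparisons between neighbouring genes were chosen after the values were seen. Most genes of the pathway lists are given as counts only, and some are not reported here.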

Additional observations from a re-analysis of the deposited data

How the results depend on the processing

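The number of interferon-stimulated genes called, 5, was 4 at an adjusted p under 0.01 (3.95% of all genes), 3 with a fold of at least 2 also required (2.98%), and 9 with p-values adjusted over genes of at least 40 reads (15.4%). With an assumed coefficient of variation it was 3 at 0.2 (2.52% of all genes) and 1 at 0.4 (0.798%), both values above the median of 0.106 that the deposited p-values imply for these genes. All these settings used the deposited folds or the read totals recovered from them, so no direction could change between them. The adjusted p of IRF9 ranged from 0.0205 to 1 over these settings, that of IRF7 from 0.00374 to 1, of TRIM22 from 0.000473 to 1, of IFI44L from 4.07e-06 to 0.0597 and of OAS1 from 8.75e-09 to 0.0347. Of the other pathway genes, 12 were called, 6 at an adjusted p under 0.01, 16 when adjusted over genes of at least 40 reads and 2 with a coefficient of variation of 0.2 assumed, where 115 genes had recovered totals and B2M was not tested. The median log2 fold of the 40 genes was 0.04 to 0.15 over the read minimums tried, and 0.06 when centred on all genes of at least 200 reads, whose median was -0.0051. Leaving out libraries in turn was not run, as no value per library was used here. No paired analysis was possible because the table holds 1 comparison and no value per library. Read totals of 51 to 94 stand behind the 3 lowest folds.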
